A study of Mus musculus with 4 samples.

Results

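The genes described here encode enzymes that write, copy and remove cytosine methylation and cofactors of these enzymes, together with a methyl-CpG binding family member. They are described in mouse embryonic stem cells. The 10 genes are Dnmt1, Uhrf1, Dnmt3a, Dnmt3b, Dnmt3l, Tet1, Tet2, Tet3, Tdg and Mbd3. They were chosen by name, with earlier results of these data known. Each was looked up by symbol among the 21938 protein-coding genes of the GENCODE M21 annotation of mm10. Each locus was read against a deposited list of 26496 chromatin regions (peaks) from ALaP-seq, in which the peroxidase APEX joined to PML attaches biotin to chromatin near PML bodies when hydrogen peroxide is given. The study has 2 samples treated with hydrogen peroxide (H2O2+) and 2 samples in which it was omitted (H2O2-). All 4 are E14 embryonic stem cells with an APEX-PML knockin, grown with leukemia inhibitory factor, CHIR99021 and PD0325901. The labels do not say whether the line is 1 clone.

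The peak list is merged over replicates, by its file name, and gives a position and a width for each peak but no height, score or value for a sample. Treated samples were therefore not compared with those without hydrogen peroxide, no error between replicates can be given, and depth is unknown here. Counts at the 10 genes are set beside the same counts over all protein-coding genes, as a description without a test. The list holds no expression levels, so neither the activity of a start nor the cell type could be checked from it, and how close a given locus lies to PML bodies was not tested.

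In mammals DNMT1 copies methylation onto the new strand after replication, and UHRF1 brings it to hemimethylated sites. DNMT3A and DNMT3B set methylation on unmethylated DNA, with DNMT3L as a cofactor that has no catalytic activity of its own. TET1, TET2 and TET3 oxidise methylcytosine, and TDG cuts out the more oxidised bases, which base excision repair then replaces. MBD3 belongs to the methyl-CpG binding family by sequence and is a subunit of the NuRD complex, which joins histone deacetylases to a chromatin remodeller. Embryonic stem cells grown with both inhibitors and leukemia inhibitory factor are known for low overall DNA methylation.

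Sequences are shown for starts that carry a peak and, for Dnmt1 and Dnmt3a, for another start of the same gene that does not, so that the pairs can be compared. Starts and bases are those of RefSeq (GRCm38.p6), in which all 10 genes were found, with 17 starts. The stretches hold the 250 bases before the start, and the last one holds the central 300 bases of an intronic peak. All are read 5′ to 3′ along the gene. Capitals mark matches to a set of 14 short words given further on.
Dnmt1, before the inner start, chr9:20952980-20953229, minus strand: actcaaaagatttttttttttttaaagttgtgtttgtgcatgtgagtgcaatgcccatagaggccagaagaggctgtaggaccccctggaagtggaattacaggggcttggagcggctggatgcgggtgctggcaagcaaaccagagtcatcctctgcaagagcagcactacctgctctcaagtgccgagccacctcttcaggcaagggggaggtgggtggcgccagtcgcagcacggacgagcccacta
Dnmt1, before the 5' end, chr9:20959889-20960138, minus strand: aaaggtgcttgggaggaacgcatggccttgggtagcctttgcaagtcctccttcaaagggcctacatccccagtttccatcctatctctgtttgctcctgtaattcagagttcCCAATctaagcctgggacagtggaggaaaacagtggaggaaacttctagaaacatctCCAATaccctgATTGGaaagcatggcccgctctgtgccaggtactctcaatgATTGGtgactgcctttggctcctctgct
Dnmt3a, before the inner start, chr12:3891494-3891743, plus strand: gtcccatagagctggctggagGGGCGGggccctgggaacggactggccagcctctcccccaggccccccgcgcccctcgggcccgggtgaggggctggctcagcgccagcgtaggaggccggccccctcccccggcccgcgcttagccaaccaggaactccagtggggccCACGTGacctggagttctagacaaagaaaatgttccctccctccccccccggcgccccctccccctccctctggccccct
Dnmt3a, before the first start in RefSeq, chr12:3806730-3806979, plus strand: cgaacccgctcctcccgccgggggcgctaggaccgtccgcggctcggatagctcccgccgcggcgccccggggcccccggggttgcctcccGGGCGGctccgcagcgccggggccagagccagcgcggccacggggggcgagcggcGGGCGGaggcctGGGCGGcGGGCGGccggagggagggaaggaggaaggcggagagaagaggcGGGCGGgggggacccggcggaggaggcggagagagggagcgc
Dnmt3b, chr2:153649199-153649448, plus strand: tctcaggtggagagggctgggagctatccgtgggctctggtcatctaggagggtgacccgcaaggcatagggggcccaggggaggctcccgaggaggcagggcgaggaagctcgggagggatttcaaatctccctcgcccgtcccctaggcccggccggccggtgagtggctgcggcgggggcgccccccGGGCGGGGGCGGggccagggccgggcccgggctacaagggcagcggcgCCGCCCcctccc
Dnmt3l, before the second start in RefSeq, chr10:78049592-78049841, plus strand: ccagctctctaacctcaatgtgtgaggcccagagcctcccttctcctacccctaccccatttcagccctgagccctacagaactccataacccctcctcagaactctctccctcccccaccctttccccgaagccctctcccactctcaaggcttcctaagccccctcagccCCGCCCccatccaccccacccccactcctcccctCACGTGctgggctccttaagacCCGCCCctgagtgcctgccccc
Uhrf1, chr17:56303087-56303336, plus strand: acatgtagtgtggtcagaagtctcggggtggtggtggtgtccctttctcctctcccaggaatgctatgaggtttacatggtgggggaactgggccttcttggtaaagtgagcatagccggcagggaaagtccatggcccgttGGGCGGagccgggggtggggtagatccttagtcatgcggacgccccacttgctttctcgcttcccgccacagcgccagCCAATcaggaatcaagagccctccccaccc
Tet2, inside the widest intronic peak, chr3:133524689-133524988, minus strand: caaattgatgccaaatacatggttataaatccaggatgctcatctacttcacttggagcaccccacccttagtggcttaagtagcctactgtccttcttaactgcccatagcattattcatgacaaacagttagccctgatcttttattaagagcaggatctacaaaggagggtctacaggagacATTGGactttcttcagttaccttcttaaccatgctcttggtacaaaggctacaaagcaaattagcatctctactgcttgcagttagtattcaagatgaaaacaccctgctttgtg

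The first Dnmt1 stretch holds 7 CpG and has 225 bases in a peak, and the second holds 2 CpG and has none in a peak. Dnmt1 has a further inner RefSeq start, at 20952623, whose stretch is not printed. That stretch lies in a peak over its whole 250 bases. It holds 26 CpG and 5 word matches, all to GGGCGG or CCAAT. In Dnmt3a the order of CpG content is the other way round. The stretch without a peak holds 38 CpG and 5 matches to GGGCGG, and the one at the inner start, with 56 bases in a peak, holds 15 CpG and 1 such match. The Dnmt3b stretch holds 21 CpG and has 85 bases in a peak, and the Uhrf1 stretch holds 10 CpG and lies in a peak over its whole 250 bases. Dnmt3l shows a start with a peak and only 4 CpG. The Tet2 stretch, all of it in a peak, holds none.

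All 10 genes had a peak within 1 kb of an annotated transcript start, but only 5 had one at the 5′ end of the gene model. Over the genome, a peak at any start was found at 42.4% of all protein-coding genes, and one at the 5′ end at 38.4%. The 5 genes with a peak at the 5′ end were Dnmt3b, Uhrf1, Tet2, Tdg and Mbd3. At Dnmt1, Dnmt3a, Dnmt3l, Tet1 and Tet3 the peak lay at an inner start only, which was so at 3.97% of protein-coding genes. Genes with more transcripts offer more starts, and these 10 have 5 to 18 transcripts each (median 9, against 3 over all protein-coding genes). Among the 8422 protein-coding genes with 5 to 18 transcripts, 61.9% had a peak at some start, 54.6% at the 5′ end and 7.33% at an inner start only. With the starts of RefSeq in place of those of GENCODE, all 10 genes again had a peak within 1 kb of a start, against 41.7% of 16522 protein-coding genes. Of the 17 RefSeq starts 13 had one, against 39.9% of 20150. Which start counts as inner depends on the annotation. RefSeq gives Tet1 and Tet3 a single start each, and both of these starts had a peak within 1 kb. The share of genes with a peak at an inner start only was not computed with RefSeq starts.

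**Figure D1:**
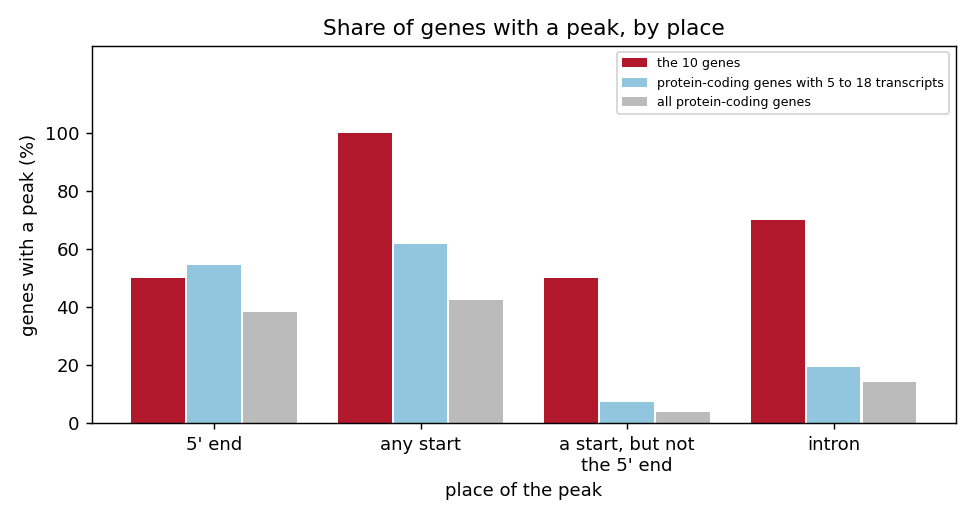
Share of genes with a peak (vertical axis, percent) by the place of the peak (horizontal axis), for the 10 genes, for protein-coding genes with 5 to 18 transcripts and for all protein-coding genes. The 10 genes are close to the genes with as many transcripts at the 5′ end (50% against 54.6%) and above them at inner starts only (50% against 7.33%) and in introns (70% against 19.4%). Starts and 5′ ends are those of GENCODE.

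The 10 genes with their 50 kb flanks held 88 peaks, each counted once, and none was shared between them. Of these, 20 lay at own starts, 20 in introns away from own starts, 31 in the 50 kb before a gene and 17 in the 50 kb after it. None lay in an exon away from a start, where 3.33% of protein-coding genes had one. Each gene had between 6 and 13 peaks over the gene and its flanks (median 8.5, against a median of 2 with quartiles of 0 and 5 over protein-coding genes). The median depended on the setting, being 4 with only peaks at least as wide as the median of the list (against 1 over protein-coding genes), 5.5 with flanks of 20 kb (against 1) and 5.5 without flanking peaks at a start of another gene (against 1). With all peaks and flanks of 50 kb, protein-coding genes that have a start peak and are as long as these 10 had a median of 4. The most were at Tet1 with 13, Uhrf1 with 12 and Dnmt1 with 10, and the fewest at Tet3 and Tdg with 6 each. At least 13 peaks were found at 2.60% of protein-coding genes and at least 6 at 20.2%. The spans of the 10 genes held a median of 3 other protein-coding genes, against 2 over all.

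**Figure D2:**
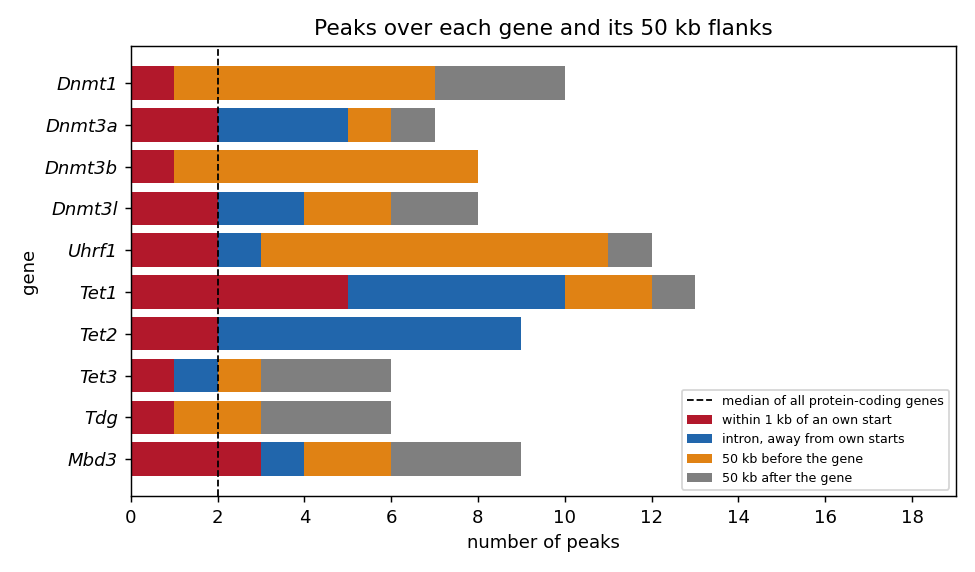
Number of peaks (horizontal axis) over each gene and its 50 kb flanks, by place. The dashed line is the median of all protein-coding genes, 2 peaks; the 10 genes hold 6 to 13, at Tet2 without any in the flanks and at Dnmt3b with 7 of 8 before the gene.

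**Figure D3:**
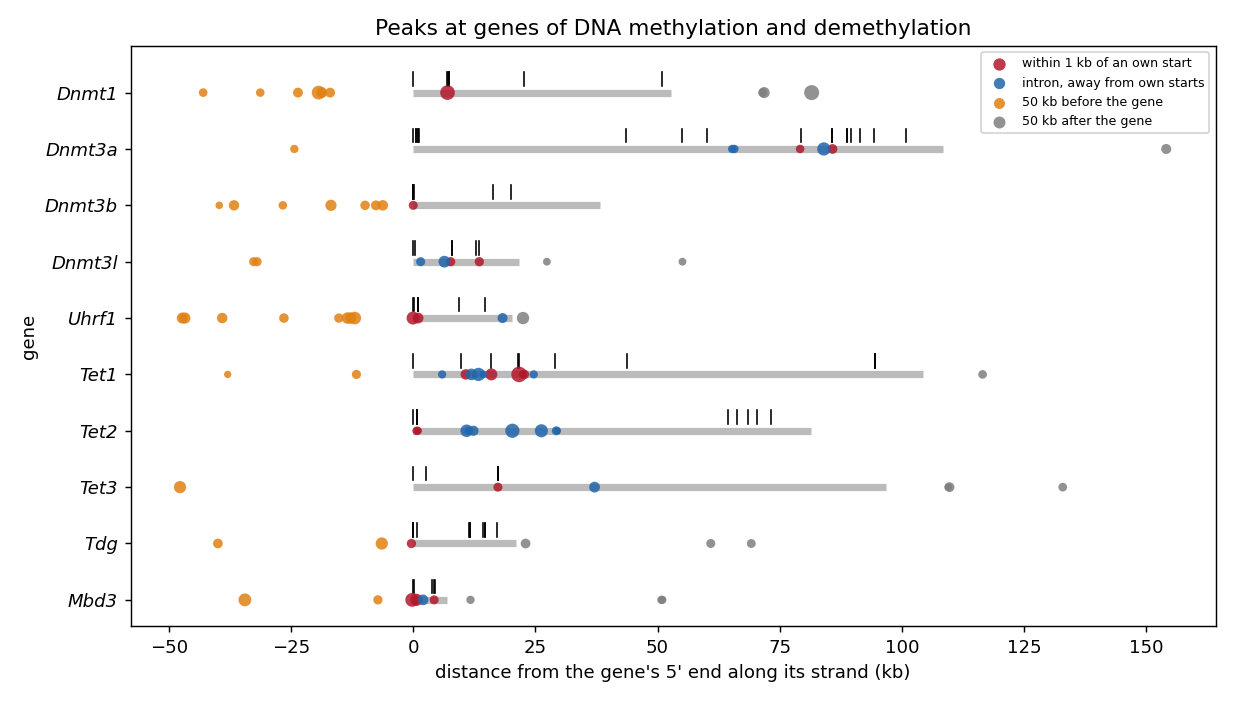
Peaks (points, larger for wider peaks) along each gene (grey bar), by distance of the peak midpoint from the 5′ end of the gene along its strand, in kb; short black ticks are annotated transcript starts. The start peak of Dnmt1 lies 7.0 kb inside the gene, that of Tet3 17.3 kb, and the start peaks of Dnmt3a 79.2 and 85.8 kb. By the gene models of GENCODE, Tet1 and Tet2 hold clusters of intronic peaks.

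Of the maintenance genes, Dnmt1 had a single peak inside the gene, and it was the second widest start peak of the set. It lay on chromosome 9 from 20952506 to 20953204 (699 bp, wider than 96.4% of all peaks) and held the starts of Dnmt1-201, Dnmt1-203, Dnmt1-205 and Dnmt1-207. The outermost start, that of Dnmt1-202 at 20959888, had no peak within 1 kb. Besides the start used in somatic cells Dnmt1 is known to have one used in oocytes; which annotated transcript corresponds to it was not examined. The outermost start had a CpG observed/expected ratio of 0.0588 over 500 bp either side, which puts it in the lowest of 10 classes of protein-coding genes. In that class 0.866% of genes had a peak at the 5′ end. Around the 4 inner starts inside the peak the ratio was 0.575 to 0.620. The inner starts of the retained-intron transcripts Dnmt1-204 and Dnmt1-206, with ratios of 0.357 and 0.215, had no peak within 1 kb.

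Uhrf1 had peaks at both of its groups of starts. One of 522 bp on chromosome 17 (56303035 to 56303556) held the starts of Uhrf1-201 and Uhrf1-203. The other, of 333 bp (56304167 to 56304499), held those of Uhrf1-202, Uhrf1-204 and Uhrf1-207, 1.0 kb into the gene. All 5 coding starts thus lay inside a peak, and neither of the 2 starts of retained-intron transcripts had one within 1 kb. A further peak of 272 bp lay in an intron 18.3 kb from the 5′ end. Uhrf1 was the only gene of the 10 whose peaks were all at least as wide as the median peak of the list, 223 bp.

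Among the genes of new methylation, Dnmt3a and Dnmt3b stood in contrast in where their peaks lay. Dnmt3a, 108 kb long with 18 distinct starts, had peaks near 3 of them, all between 79.4 and 85.7 kb from the 5′ end. A peak of 254 bp on chromosome 12 (3891688 to 3891941) held the starts of Dnmt3a-203 and Dnmt3a-205, 85.7 kb from the 5′ end. Another of 172 bp (3885100 to 3885271) ended 178 bp before the start of Dnmt3a-213. The widest peak of Dnmt3a, of 556 bp (3889764 to 3890319), was intronic and lay between these start peaks. Intronic peaks of 158 and 168 bp lay 65.3 and 65.7 kb from the 5′ end. Dnmt3a is known to have a shorter form, Dnmt3a2, made from an inner promoter and abundant in embryonic stem cells. The 6 starts in the first 1.2 kb, where the CpG ratio reached 0.989, had no peak within 1 kb. Around the inner starts of Dnmt3a-203 and Dnmt3a-205 the ratio was 0.499 and 0.520, and around that of Dnmt3a-213 it was 0.169.

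Dnmt3b had 1 peak inside the gene, of 202 bp on chromosome 2 (153649364 to 153649565), which held 3 starts shared by 9 transcripts. The same peak lay within 1 kb of a start of the noncoding Dnmt3bos. Its other 7 peaks were all before the gene, between 6.2 and 39.7 kb away, and 6 of these were at no annotated start of any gene. The exception, of 369 bp at 16.8 kb, lay at Commd7. The 3 nearest to Dnmt3b, at 6.2, 7.6 and 9.8 kb, were 237 to 315 bp wide, lay in no gene and had CpG ratios of 0.141 to 0.295. In the 50 kb after Dnmt3b there was no peak.

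Dnmt3l had peaks at 2 inner groups of starts and none at its outer one. The peaks ended 108 bp before the start of Dnmt3l-201 (chromosome 10, 78049520 to 78049734, 215 bp) and began 39 bp after the start shared by Dnmt3l-202, Dnmt3l-203 and Dnmt3l-206 (78055374 to 78055596, 223 bp). Both had few CpG, with ratios of 0.0975 and 0.236. An intronic peak of 418 bp lay 6.4 kb from the 5′ end. Another of 208 bp, 1.5 kb from the 5′ end, lay inside the overlapping gene Aire and at one of its starts, so its position does not tell both genes apart.

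The 20 intronic peaks were spread over 7 of the 10 genes, where 14.2% of protein-coding genes had an intronic peak away from starts, and Tet1 and Tet2 held 12 of them. Dnmt1, Dnmt3b and Tdg had none. Per length of intron the 10 genes had 4.36 peaks per 100 kb, against 0.654 over protein-coding genes. Both densities use the gene models of GENCODE and count intronic peaks at starts of other genes. Of the 20 peaks, 2 lay at a start of another gene. Most of the intronic peaks of Tet1 lay before its single RefSeq start. Without Tet1 and Tet2, left out after their values were seen, the remaining 8 genes had 2.62 per 100 kb. Among protein-coding genes with a start peak and a length in the range of these 10, 18.7% had an intronic peak and 9.22% a peak at an inner start only. When only peaks at least as wide as the median of the list (223 bp) were used, the same 7 genes had an intronic peak, against 8.25% of protein-coding genes. At starts the same restriction mattered more. It left 6 of the 10 genes with a peak at some start, against 27.3%, and 2 with one at the 5′ end, against 24.7%.

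Tet1, whose product is abundant in embryonic stem cells, had 10 peaks inside the gene model of GENCODE. All lay within 18.9 kb on chromosome 10 (62884242 to 62903145). The widest of all start peaks of the set, 797 bp (62886928 to 62887724), held the starts of Tet1-207 and Tet1-210, 21.7 and 21.5 kb from the 5′ end. It was wider than 97.8% of the listed peaks, and 2 more, of 127 and 230 bp, lay just after it. A peak of 433 bp (62892786 to 62893218) held the start of Tet1-209, and one of 311 bp lay 749 bp from the start of Tet1-206. The peak of 433 bp also lay within 1 kb of a start of Gm26479, which is not protein-coding. The outermost start, that of Tet1-208, had none within 1 kb. Neither had the starts of Tet1-201 and Tet1-202, 29 and 43.7 kb from the 5′ end, nor the 3 starts 94.5 kb into the gene. RefSeq, in the version used here, gives Tet1 a single start, at 62887324, inside the peak of 797 bp. Tet1 lies on the minus strand, so its peaks from 62892786 to 62903145 lie before that start. They are inside the gene only in the longer model of GENCODE. Of the intronic peaks, only the one that begins at 62884242 lies after the RefSeq start. Only 0.169% of protein-coding genes had at least 5 start peaks, as Tet1 did. The 5 intronic peaks were 119 to 553 bp wide, with CpG ratios of 0 to 0.491.

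Tet2 had its peaks at a group of starts near its 5′ end and in introns, and none in the 50 kb on either side. At the start group on chromosome 3 a peak of 166 bp (133544359 to 133544524) held the starts of Tet2-201 and Tet2-204, and one of 147 bp lay 34 bp from the nearest start. The CpG ratio around these starts was up to 0.927. Both start peaks also lay within 1 kb of a start of Gm42567, which is not protein-coding. The starts 64.5 to 73.3 kb into the gene, among them that of the coding Tet2-207, had no peak within 1 kb. The 7 intronic peaks lay between 11.0 and 29.5 kb from the 5′ end, over 18.8 kb, and at least that many were found at 0.511% of protein-coding genes. They were of 99 to 651 bp, the widest from 133524513 to 133525163, and all were poor in CpG, with ratios of 0.133 to 0.332. Both peaks farthest from the start lay mostly in sequence that RefSeq marks as repeats, 74.9 and 79.8% of their bases, and the widest had none.

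Tet3 had fewer peaks. The peak at its starts, 208 bp on chromosome 6 (83441635 to 83441842), held those of Tet3-201 and Tet3-202, 17.4 kb from the 5′ end, and also lay within 1 kb of a start of the noncoding B230319C09Rik. RefSeq gives Tet3 a single start, at 83441678, which lies inside this peak. The start of Tet3-203, 2.7 kb from the 5′ end and rich in CpG (ratio 0.820), had no peak within 1 kb. The one intronic peak, of 336 bp at 37.1 kb, lay at a start of 5430434F05Rik.

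Tdg, the glycosylase gene, had 1 peak at its start and none further inside. It was 221 bp wide on chromosome 10 (82629362 to 82629582) and ended 246 bp before the 5′ end, so it held no annotated start. Although the CpG ratio around the start was 0.872, that of the peak was 0.282. Mbd3 lies on the same chromosome and is the shortest of the 10 genes at 7.01 kb. It had 3 start peaks, of 606 bp over the 5′ end (80399447 to 80400052), 460 bp just inside (80398664 to 80399123) and 202 bp at the inner starts of Mbd3-205 and Mbd3-206 (80395156 to 80395357). At least 3 start peaks were found at 2.14% of protein-coding genes. A further peak inside Mbd3, of 324 bp, was intronic.

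Over all 10 genes, 40 of 85 distinct starts (47.1%) had a peak within 1 kb, against 34.5% of the 93513 starts of protein-coding genes and 38.1% of those in genes with 5 to 18 transcripts. Inside a peak lay 24 of the 85, against 18.2%. Of the starts of coding transcripts 32 of 54 (59.3%) had a peak within 1 kb, against 37.9%, and of the other starts 8 of 31 (25.8%), against 29.7%. Neighbouring starts share peaks, so these are not independent. With a CpG ratio of at least 0.6, 20 of 29 starts (69.0%) had a peak, close to the 69.7% over protein-coding genes. Below that ratio it was 20 of 56 (35.7%), against 12.2%. The 9 CpG-rich starts without one were 5 of Dnmt3a, 2 of Tdg and 1 each of Tet1 and Tet3. At the 5′ ends, the 5 genes without a peak were in CpG classes 1 (Dnmt1), 2 (Tet1 and Tet3), 3 (Dnmt3l) and 5 (Dnmt3a), and those with one in classes 5 (Uhrf1), 8 (Tet2), 9 (Dnmt3b and Tdg) and 10 (Mbd3). The classes run from 1, the poorest in CpG, to 10. The share of protein-coding genes with a peak at the 5′ end was 0.866% in class 1, 2.64% in class 2, 5.1% in class 3 and 34.3% in class 5. It was 68.2% in class 8, 72.4% in class 9 and 68.9% in class 10.

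In composition the median CpG ratio was 0.586 in the 20 start peaks of the 10 genes and 0.235 in their 20 intronic peaks, and the ranges overlapped, 0.0501 to 1.19 at starts and 0 to 0.765 in introns. Over the whole list it was 0.780 in the 10760 peaks near a start of a protein-coding gene and 0.211 in the 15736 others. The 31 flanking peaks at a start of another protein-coding gene had a median of 0.783 and the 17 at no start 0.293. Median widths were 226.5 bp for start peaks and 276.5 bp for intronic ones, against 223 bp over the list.

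**Figure D4:**
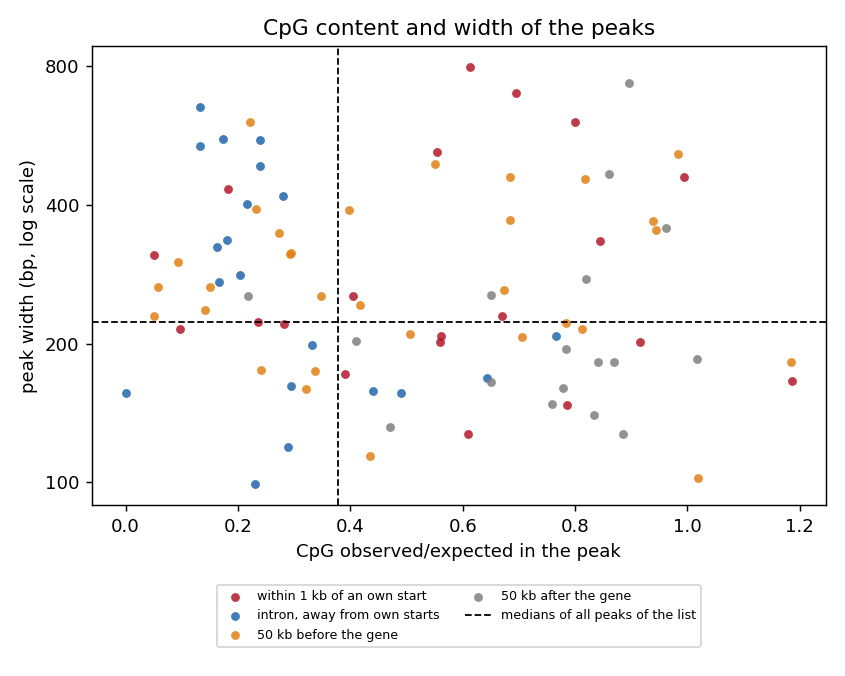
Width (vertical axis, bp, log scale) against CpG observed/expected ratio (horizontal axis) of the 88 peaks, coloured by place. Dashed lines are the medians of all 26496 peaks, 0.379 and 223 bp; most intronic peaks lie left of the CpG median (their own median is 0.235), with widths from 99 to 651 bp.

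The flanks held 48 peaks away from own starts, and 31 of these lay within 1 kb of a start of another protein-coding gene. All genes but Tet2 had a peak in the 50 kb flanks, as had 69.9% of protein-coding genes, and the same 9 had one when peaks at their own starts were left out (64.8% of protein-coding genes). At Dnmt1 the neighbours with a start peak were S1pr2, Ppan and Mrpl4, and 5 of 9 flanking peaks were at no start. The widest of these, of 736 bp on chromosome 9 (20877983 to 20878718), lay inside Angptl6, and 4 others stood between 18.7 and 31.3 kb before the gene. At Uhrf1 7 of 9 lay at starts of Fem1a, Ticam1, Plin3 and Kdm4b, the last a histone demethylase gene whose peak was 466 bp wide. At Dnmt3l 3 of 4 were at Pfkl and Icosl.

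At Tet1 the 3 flanking peaks were at Ccar1, Slc25a16 and Dna2, and at Tet3 all 4 were at neighbours, namely Bola3, Dguok and a start region shared by Mob1a and Mthfd2, an enzyme gene of one-carbon metabolism. At Tdg 4 of 5 were at 1190007I07Rik, Glt8d2 and Hcfc2. All 5 at Mbd3 were at Adamtsl5, Mex3d, Uqcr11 and Tcf3, whose peak was 515 bp wide. The 2 flanking peaks of Dnmt3a, of 159 and 276 bp, lay inside Dtnb and Pomc and at no start. A peak that lies near several genes cannot be assigned to one of them from its position.

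Short words were searched on both strands in the central 300 bp of each peak. They were the octamer ATGCAAAT, the Sox word AACAAT, the Klf word GGGCGTG, the Esrrb word AAGGTCA, the Ets word CCGGAAG, the E-box CACGTG, the Sp word GGGCGG, the E2f word TTTCCCGC, the CCAAT box, the Tcf word CTTTGAT and the Stat word TTCCNGGAA. The others were GCGCATGC as part of the Nrf1 motif, AAGATGGC as part of that of Yy1 and TCTCGCGA as part of that of Zbtb33. The Klf and Sp words have the same first 5 letters. GGGCGG was present in 10 of the 20 start peaks and 2 of the 20 intronic peaks, and in 63.3% of all peaks near a protein-coding start and 16.8% of the others. CCAAT was present in 9 start peaks and 9 intronic peaks, and in 33.4% of all peaks. TTTCCCGC was present in a start peak and in the intronic peak of Uhrf1, and in 1.22% of all peaks. CCGGAAG was present in 2 start peaks and 0 intronic ones, and in 17.1% of all peaks near a protein-coding start. For GGGCGTG it was 1 and 0, and 15.2%. AACAAT was present in 2 start peaks and 2 intronic ones, and in 5.14% of all peaks near a protein-coding start and 19% of the others. For AAGATGGC it was 1 and 2, and 4.62% and 1.84%. The octamer was found in 1 intronic peak, at Tet1, and in 0 start peaks. It was present in 3.65% of all peaks and in 5.07% of those not near a protein-coding start. AAGGTCA was found in 2 intronic peaks, at Dnmt3a and Tet1, against 9.71% of all peaks and 13.5% of those not near a protein-coding start. Of the 48 flanking peaks, 1 held the octamer and 4 held AAGGTCA. In the 250 bases before the RefSeq starts of protein-coding genes, GGGCGG was present at 44.1%, CCAAT at 35% and CACGTG at 6.78%, which are the words marked in the stretches printed above. A match is a description of the letters and not a bound site.

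Other genes that act with these enzymes were grouped in 6 lists of 69 genes in all. For comparison, 42.4% of all protein-coding genes had a peak at some start, and 61.9% of those with 5 to 18 transcripts. The lists were not matched to either set by transcript number. Of the partners of maintenance and targeting, 11 of 14 had a start peak, widest at Pcna (893 bp), the replication clamp, Ehmt2 (791 bp), an H3K9 methyltransferase, Trim28 (555 bp) and Cdca7 (491 bp). Dppa3, Ehmt1 and Smchd1 had none. Of the genes for one-carbon metabolism and methyl donors, 11 of 12 had one, among them Mat2a (877 bp, the widest), which makes the methyl donor, Mthfd1 (707 bp) and Ahcy (439 bp), and Shmt2 had none. Of the TET partners and cofactors it was 10 of 12, widest at Nanog (737 bp), Sall4 (539 bp), Zfp281 (515 bp) and Sin3a (358 bp), while Cxxc4 and Idh2 had none.

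Of the NuRD subunits, with which MBD3 acts, 9 of 12 had a start peak, widest at Rbbp4 (976 bp), Gatad2a (536 bp), Hdac2 (451 bp) and Hdac1 (356 bp). Chd3, Chd4 and Mta1 had none. Of the base excision repair genes 8 of 12 had one, widest at Ung (364 bp), Neil1 (348 bp), Parp1 (311 bp) and Xrcc1 (243 bp). Fen1, Neil3, Polb and Smug1 had none. Of the methyl-CpG readers 4 of 7 had one, namely Zbtb38 (708 bp), Mbd2 (388 bp), Mbd4 (236 bp) and Mbd1 (177 bp). Those without included Zbtb4 and Zbtb33. The shares for readers (57.1%) and base excision repair (66.7%) lay either side of the 61.9% of genes with 5 to 18 transcripts. The other lists stood at 75 to 91.7%. With the starts of GENCODE, start peaks at an inner start only were found at 5 of the 10 genes described first and at 3.97% of protein-coding genes. In the lists it was so at 1 of 14 partners of maintenance, 2 of 12 TET partners, 2 of 12 NuRD subunits and 0 of the genes in the 3 other lists.

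**Figure D5:**
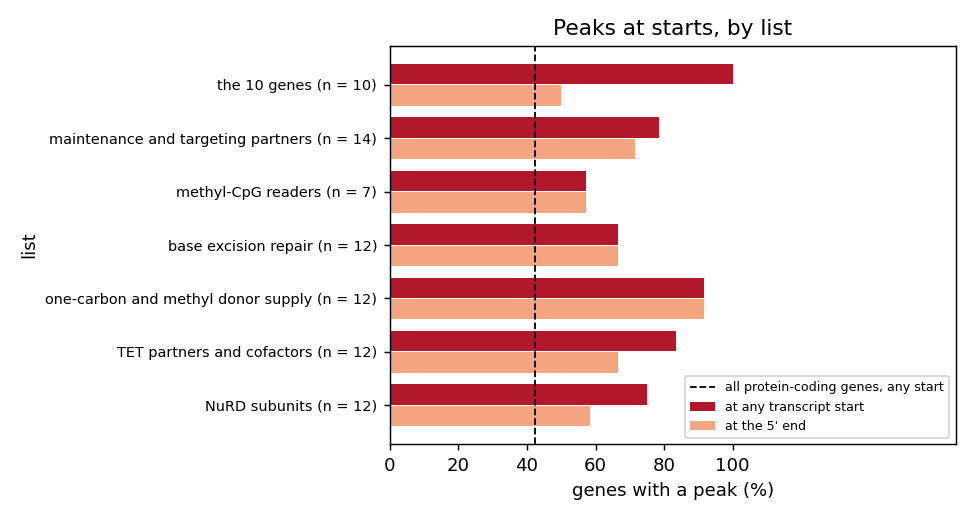
Share of genes with a peak (horizontal axis, percent) at any transcript start and at the 5′ end, for the 10 genes and the 6 lists of genes that act with them; the dashed line is the share of all protein-coding genes with a peak at any start, 42.4%. The 10 genes stand at 100% for any start and 50% for the 5′ end, and the lists at 57.1 to 91.7% for any start. Among protein-coding genes with 5 to 18 transcripts the share for any start was 61.9%.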

How the data were processed

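Per the series' design text, the authors trimmed reads with Trimmomatic, mapped them with bowtie2 version 2.3.5.1 to repeat-masked mm10 and removed blacklisted and greylisted regions with bedtools. Mapping to a masked genome can miss peaks in repeats. The labels and the design text name no peak caller, threshold, depth or rule for merging replicates. The deposited list has 3 columns (positions only) and no column of a single sample. Starts were read as counted from 0.

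Peaks were joined to GENCODE M21 (mm10, the assembly GRCm38) with Python 3.11.15, pandas 2.3.3 and pysam 0.24.0. A peak counted as a start peak if 1 bp or more of it fell within 1 kb of any transcript start, and as intronic if its midpoint lay in the gene, in no exon and away from own starts. Flanks were 50 kb before and after the gene model. CpG ratios at starts used 500 bp either side. Placing was tested on simulated peaks. Genes and lists were chosen with earlier results of these data known. Named were all 10 genes, neighbours with a start peak and, per list, up to 4 genes with the widest start peak and up to 4 without one; some genes the rule names are not reported here. Of the start sequences, the 250 bases before RefSeq starts are shown in place of the planned peak centres, chosen after seeing the data. Alternatives were other windows, flanks, transcript sets, overlap rules and wider peaks only.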

Additional observations from a re-analysis of the deposited data

How the results depend on the processing

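With the deposited peaks of any width, all 10 genes had a start peak with windows of 500 bp and 2 kb, with coding or basic transcripts only and with the other overlap rules. With only peaks at least as wide as the median, 6 of 10 had one (27.3% of protein-coding genes), Dnmt3b, Tet2, Tet3 and Tdg being without, and 2 of 10 at the 5′ end (24.7%). The same restriction left 49 of 88 peaks and a median of 4 per gene (1 over protein-coding genes), while the same 7 genes had an intronic peak (8.25%). At the 5′ end the count was 4 with 500 bp (without Tet2) and 6 with 2 kb (with Dnmt3l), against 5; genes with an intronic peak fell to 5 with 2 kb, Dnmt3l and Mbd3 being lost. Flanks of 20 kb gave a median of 5.5 peaks per gene (1). Without flanking peaks at a start of another gene, 57 peaks and a median of 5.5 (1) remained. In the fixed window of 50 kb either side of the 5′ end, Dnmt3a had 1 peak and Tet3 had 3. Leaving peaks at own starts out of the flanks, an alternative chosen after seeing the data, still gave 9 genes with a flanking peak. No paired analysis was possible because the deposited list carries no values per sample. For the same reason no replicate was left out, and no depth limit could be set.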
